A study of Homo sapiens with 8 samples.

Results

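The 60 genes described here encode proteins of mitosis: kinases and cyclins that start it, the spindle checkpoint, the kinetochore, spindle motors, the cytokinesis machinery, separase and its regulators, and condensin. They were chosen by name, with earlier results of these data known, and matched to Ensembl gene identifiers through GENCODE symbols. All 60 are among the 57500 genes of the deposited count table and the 19118 genes of the deposited normalized table, and all 60 were among the 19171 genes tested. RNAseq was performed on HEK293T cells, a line from human embryonic kidney with the large T antigen of SV40, a viral protein that binds the RB family and p53. The labels give 4 Control libraries, treated with vehicle, and 4 DZNep libraries, treated with 100 µM DZNep for 48 h, both groups being unmodified HEK293T cells collected at 48 h. DZNep, or 3-deazaneplanocin A, resembles adenosine and blocks AHCY, the enzyme that hydrolyzes S-adenosyl-l-homocysteine, which lowers the methylation potential of a cell. The samples are of 1 cell line at 1 dose and 1 time, so that the values describe a single condition.

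At the start of mitosis, CDK1 bound to cyclin B phosphorylates many proteins, PLK1 and Aurora kinases drive centrosome and spindle assembly, and condensin compacts the chromosomes. Kinetochores are protein assemblies on the centromere that attach chromosomes to microtubules, and unattached ones keep the checkpoint on, which holds back the anaphase-promoting complex (APC/C). Many genes of mitosis are transcribed in G2 and M phase, when the MuvB complex with B-MYB and FOXM1 acts on their promoters, and are held down in resting cells by the DREAM complex, which contains MuvB too.

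Library totals ranged from 25043058 counts (Control replicate 1) to 44902779 counts (DZNep replicate 2). In a principal component analysis of the genes tested, the first component held 63.5% of the variance and separated the groups, and the second held 22.5%. On the second component, replicates 1 and 4 of both groups scored between 9.87 and 58.2, and replicates 2 and 3 of both groups between -68.1 and -13.4. Replicates 1 and 4 also held larger shares of mitochondrial counts, 7.04% to 13.7%, against 3.02% to 4.44% in replicates 2 and 3. Of 6 genes that mark HEK293 cells, all were detected in every library, with summed normalized counts of 63004 to 107437 in the Control and 58677 to 89036 in the DZNep libraries. Of these, 0 were higher and 2 (INA, PAX2) were lower with DZNep. Among markers of other cell types, 1 of 5 fibroblast genes (LUM) and TP63, which is expressed in keratinocytes, were higher. The fibroblast genes summed to 3356 to 6940 normalized counts in the Control and 2823 to 7046 in the DZNep libraries. Among them COL1A2 had 15.3 in DZNep replicate 2, against 1072 to 1647 in the other DZNep libraries. The leukocyte gene CD3E, which was not tested, had 0 in every Control library and 8.16 to 40.5 in the DZNep libraries. The summed normalized counts of the 3 keratinocyte genes were at most 3.22 in a Control library and between 32.8 and 361 in the DZNep libraries, the highest being DZNep replicate 2, where KRT5 reached 296. Hepatocyte genes summed to 1.54 to 8.59 and 16.1 to 37.1 in the Control and DZNep libraries, with 0 of 3 tested, and leukocyte genes summed to 176 to 364 and 226 to 425, with 0 of 4 tested past the threshold. The part of these transcripts in the results below was not tested.

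Promoters are shown because genes of mitosis are known for 2 promoter elements, whose part in the changes was not tested. The CHR element, with TTTGAA as its usual form, is the site that MuvB binds, and CCAAT boxes are bound by NF-Y. The RefSeq promoter table (GRCh38.p14) held 52 of the 60 members (not AURKA, TTK, CENPH, KNL1, BIRC5, TPX2, BUB3 and FOXM1), from 250 bases before to 50 bases after each start. The 130 bases before the RefSeq start are given for members that rose (CCNB1, CCNB2, INCENP, KIF4A, KIF2C, KIFC1) and members that fell (SPC24, CENPK). They were picked by eye to show windows with and without these letters, and their numbers say nothing of how often a window holds them. Each is written 5′ to 3′ on the strand of the gene. Capitals mark TTTGAA, the close form given by TTTAAA, and the box read as CCAAT, which appears as ATTGG where it lies on the other strand.
CCNB1, chr5:69167020-69167149, forward strand: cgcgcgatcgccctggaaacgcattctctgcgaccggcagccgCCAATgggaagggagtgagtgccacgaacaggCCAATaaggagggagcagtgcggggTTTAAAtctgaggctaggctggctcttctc
CCNB2, chr15:59105016-59105145, forward strand: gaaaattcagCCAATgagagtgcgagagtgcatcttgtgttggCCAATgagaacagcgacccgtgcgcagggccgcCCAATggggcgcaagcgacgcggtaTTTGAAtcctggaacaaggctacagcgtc
INCENP, chr11:62123881-62124010, forward strand: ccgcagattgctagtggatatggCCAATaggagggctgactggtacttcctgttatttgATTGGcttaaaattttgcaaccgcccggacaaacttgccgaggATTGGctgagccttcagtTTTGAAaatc
KIF4A, chrX:70289974-70290103, forward strand: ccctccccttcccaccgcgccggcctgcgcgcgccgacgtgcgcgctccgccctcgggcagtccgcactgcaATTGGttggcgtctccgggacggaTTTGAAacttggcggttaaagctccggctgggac
KIF2C, chr1:44739707-44739836, forward strand: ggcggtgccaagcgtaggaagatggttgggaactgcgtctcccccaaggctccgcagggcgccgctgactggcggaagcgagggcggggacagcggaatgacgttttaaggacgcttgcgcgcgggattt
KIFC1, chr6:33391693-33391822, forward strand: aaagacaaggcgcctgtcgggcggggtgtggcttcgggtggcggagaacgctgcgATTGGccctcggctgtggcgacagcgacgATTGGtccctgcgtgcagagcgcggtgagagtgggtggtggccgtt
SPC24, chr19:11155783-11155912, reverse strand: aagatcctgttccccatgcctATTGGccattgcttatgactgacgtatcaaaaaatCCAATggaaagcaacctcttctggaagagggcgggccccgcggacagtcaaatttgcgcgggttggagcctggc
CENPK, chr5:65563169-65563298, reverse strand: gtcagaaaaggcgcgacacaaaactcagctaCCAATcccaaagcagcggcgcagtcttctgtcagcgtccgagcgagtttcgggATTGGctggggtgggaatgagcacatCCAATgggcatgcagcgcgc

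In CCNB2, INCENP and KIF4A, TTTGAA began at positions -29, -10 and -34, where -1 is the last base before the start, and CCNB1 held TTTAAA at -30. Within these 130 bases KIF2C held none of these letters (a TTTAAA that began at -3 ran past its start), and KIFC1 and both members that fell held the CCAAT box alone. KIFC1 held TTTGAA on the other strand after its start, from position 5. Over the 300 bases, TTTGAA on either strand was found in 33 of the 52 members (63.5%), against 18.2% of the 27305 genes of the table. CCAAT was found in 39 members (75.0%), against 39.7% of all genes, TTTAAA in 13 (14.5% of all genes) and TTCGAA in 4 (1.82% of all genes). A gene with several starts counted once, if any of its starts held the letters, and 11 members had more than 1 start. TTTGAA was in 10 of 16 members that rose, in 0 of 4 that fell and in 23 of 32 that did not pass the test. CCAAT was in 14 of 16, 2 of 4 and 23 of 32. A match is a run of letters and not a mapped binding site.

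More of the members rose than fell with DZNep. At an adjusted p-value under 0.05 (edgeR's quasi-likelihood test with Benjamini-Hochberg adjustment over all genes tested), 21 of the 60 were higher (35.0%) and 5 were lower (8.33%), and 34 did not pass. Over all genes tested, 19.1% were higher and 21.8% were lower. The members that rose included the kinases PLK1, AURKA and TTK, cyclin B1, 3 subunits of the chromosomal passenger complex, 6 kinesins and FOXM1, while the 5 that fell were 4 kinetochore genes and the checkpoint gene MAD1L1. With a log2 fold change over 1 as a further threshold, 5 members were higher (PLK1, KIF2C, INCENP, KIF20A, FOXM1) and 2 were lower (CENPH, MAD1L1), and 10.6% and 13.5% of all genes tested passed in these directions. Without Control replicate 1, 2 or 4 the 5 higher became 2, 10 and 3, and the 2 lower became 1 without Control replicate 4, DZNep replicate 2 or DZNep replicate 3. The median log2 fold change was 0.34 for the members and -0.025 for all genes tested that have a symbol. In bulk RNA, a change in the number of cells that express a gene and a change in its RNA per cell cannot be told apart.

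**Figure D1:**
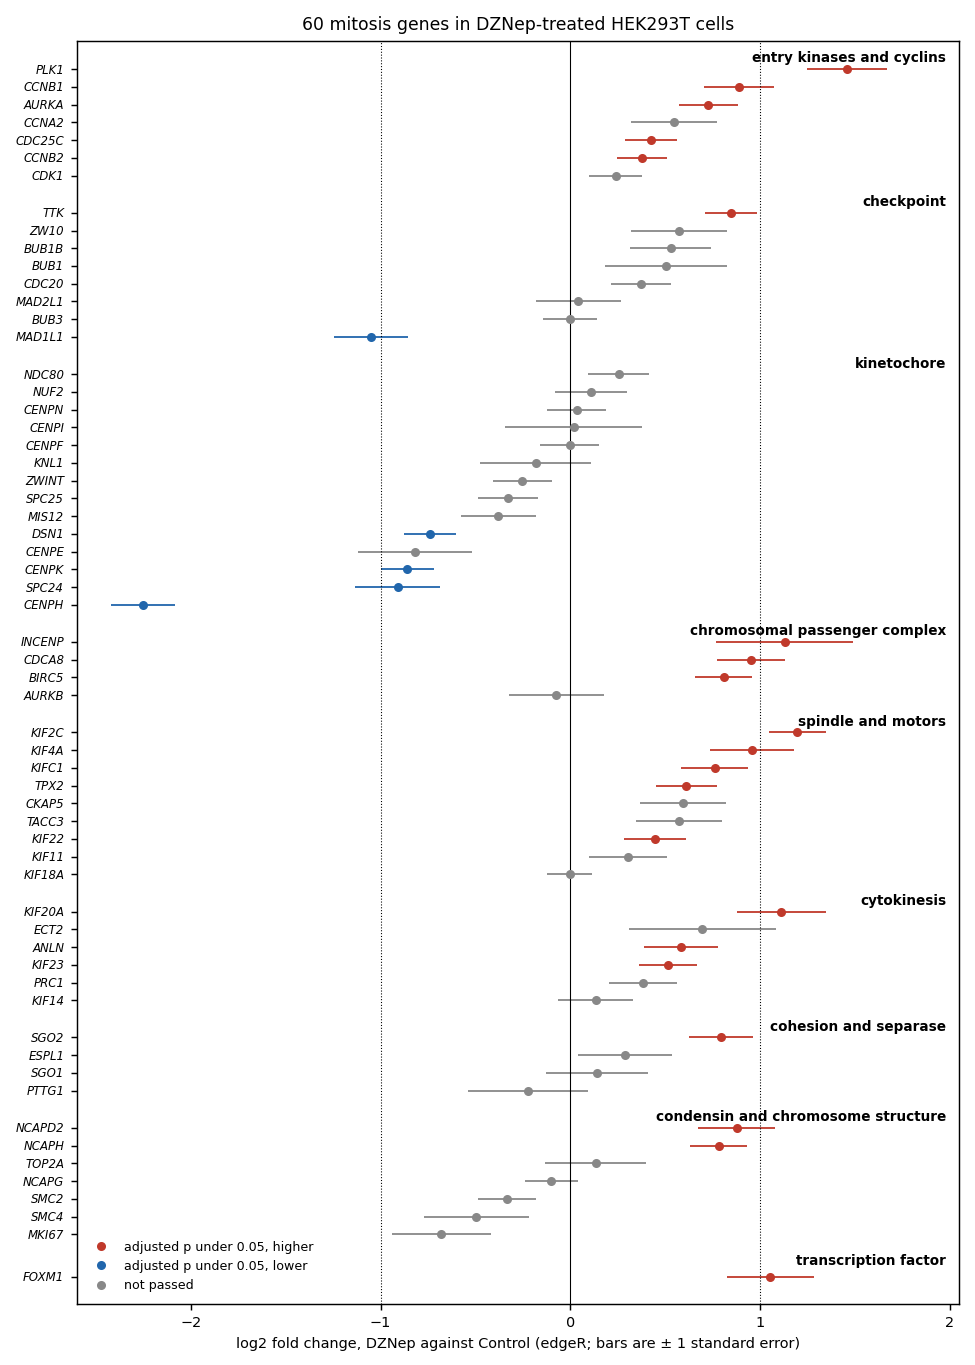
Log2 fold change of each of the 60 members in DZNep against Control (x axis, edgeR, bars are ± 1 standard error), grouped by function, with members past an adjusted p-value of 0.05 in red (21 higher) or blue (5 lower) and the others in grey. PLK1 lies farthest to the right (1.46) and CENPH farthest to the left (-2.25), and 0 of the 14 kinetochore genes are red.

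The groups share replicate numbers, and libraries of the same number were taken as pairs, which the labels do not state. After subtraction of group means, Control replicates 2, 3 and 4 correlated most with the DZNep library of their own number (0.49, 0.43 and 0.67). Control replicate 1 correlated more with DZNep replicate 4 (0.53) than with DZNep replicate 1 (0.14), so this pair is the least certain. With the replicate number as a block in the same test, 32 members were higher and 11 were lower, where 28.8% and 30.2% of all genes tested passed. The members that passed only with the block were CCNA2, BUB1, BUB1B, CDC20, ZW10, TACC3, CKAP5, KIF11, PRC1, ECT2 and ESPL1, which were higher, and CENPE, SPC25, MIS12, SMC2, SMC4 and MKI67, which were lower. Each of these 17 had the same sign in replicates 1 and 4 alone and in replicates 2 and 3 alone, and 0 calls were lost with the block. The block favours genes whose pairs move alike, so this shared sign is no separate support for the 17 calls. Within the 4 pairs, 31 members were higher in every pair, 10 were lower in every pair and 19 went both ways. How many of all genes tested kept 1 sign in every pair was not counted, so these numbers set nothing apart in the members. The DZNep libraries stood entirely above the Control libraries for 23 members and entirely below for 5, against 19.5% and 19.4% of all genes tested. The p-values measure the spread between these libraries only.

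Of the 7 entry kinases and cyclins, 5 rose and 0 fell (71.4% and 0%, against 19.1% and 21.8% of all genes tested). All 7 had a positive log2 fold change (median 0.55), as had 9234 of the 18978 genes tested that have a symbol. PLK1 (ENSG00000166851, chromosome 16 of GRCh38 from 23677656 to 23690367) encodes the Polo-like kinase that acts in centrosome maturation, spindle assembly and cytokinesis. Its normalized counts were 3482, 7063, 5583 and 4779 in Control replicates 1 to 4 and 15905, 14036, 14605 and 13949 in DZNep replicates 1 to 4. Every DZNep library thus lay far above every Control library, and the Control libraries spread more than the DZNep libraries. PLK1 rose 2.75-fold (log2 fold change 1.46, standard error 0.21, adjusted p = 0.00043, edgeR). The log2 ratios within the pairs were 2.19, 0.99, 1.39 and 1.55.

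CCNB1 (ENSG00000134057, chromosome 5 from 69167135 to 69178245) encodes cyclin B1, the partner of CDK1. It had 4300, 7682, 6200 and 6469 normalized counts in the Control and 11803, 11357, 10610 and 12781 in the DZNep libraries. The groups did not overlap, and Control replicate 1 was the lowest library. CCNB1 rose with a log2 fold change of 0.89 (standard error 0.19, adjusted p = 0.00362, edgeR). AURKA (ENSG00000087586, chromosome 20 from 56369389 to 56392337), the Aurora kinase of the spindle poles, had 2807, 4227, 3488 and 3525 in the Control and 5915, 5831, 5435 and 6538 normalized counts in the DZNep libraries. These groups did not overlap either, and AURKA rose by 0.73 on the log2 scale (standard error 0.16, adjusted p = 0.00406, edgeR).

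CDC25C (ENSG00000158402, chromosome 5 from 138285269 to 138338355) encodes a phosphatase that activates CDK1. It had 1358, 1091, 1116 and 1234 normalized counts in the Control and 1650, 1623, 1468 and 1831 in the DZNep libraries. The groups lay close together without overlap, and the log2 fold change was 0.43 (standard error 0.14, adjusted p = 0.0292, edgeR). This call was lost without any of Control replicates 2 and 3 and DZNep replicates 1, 2 and 4, with adjusted p-values of up to 0.0804, and 8.80% of its exonic bases lie in FAM53C on the opposite strand. CCNB2, the other B-type cyclin, rose too (log2 fold change 0.38, standard error 0.13, adjusted p = 0.0406, edgeR), but its call was lost without any 1 of 7 libraries (every library but Control replicate 2), with adjusted p-values of up to 0.106.

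CDK1 (ENSG00000170312, chromosome 10 from 60778331 to 60794852), the kinase that these cyclins activate, had 5557, 5236, 6134 and 6241 normalized counts in the Control and 7195, 6257, 6593 and 7856 in the DZNep libraries. The lowest DZNep library was just above the highest Control library. CDK1 had a log2 fold change of 0.24 (standard error 0.14) and did not pass the test with or without the block (edgeR, adjusted p = 0.0778 and 0.198). For CCNA2, cyclin A2, the adjusted p-value was 0.0787 and with the block 0.00195 (log2 fold change 0.55, edgeR), and 9.24% of its exonic bases are shared with EXOSC9.

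**Figure D2:**
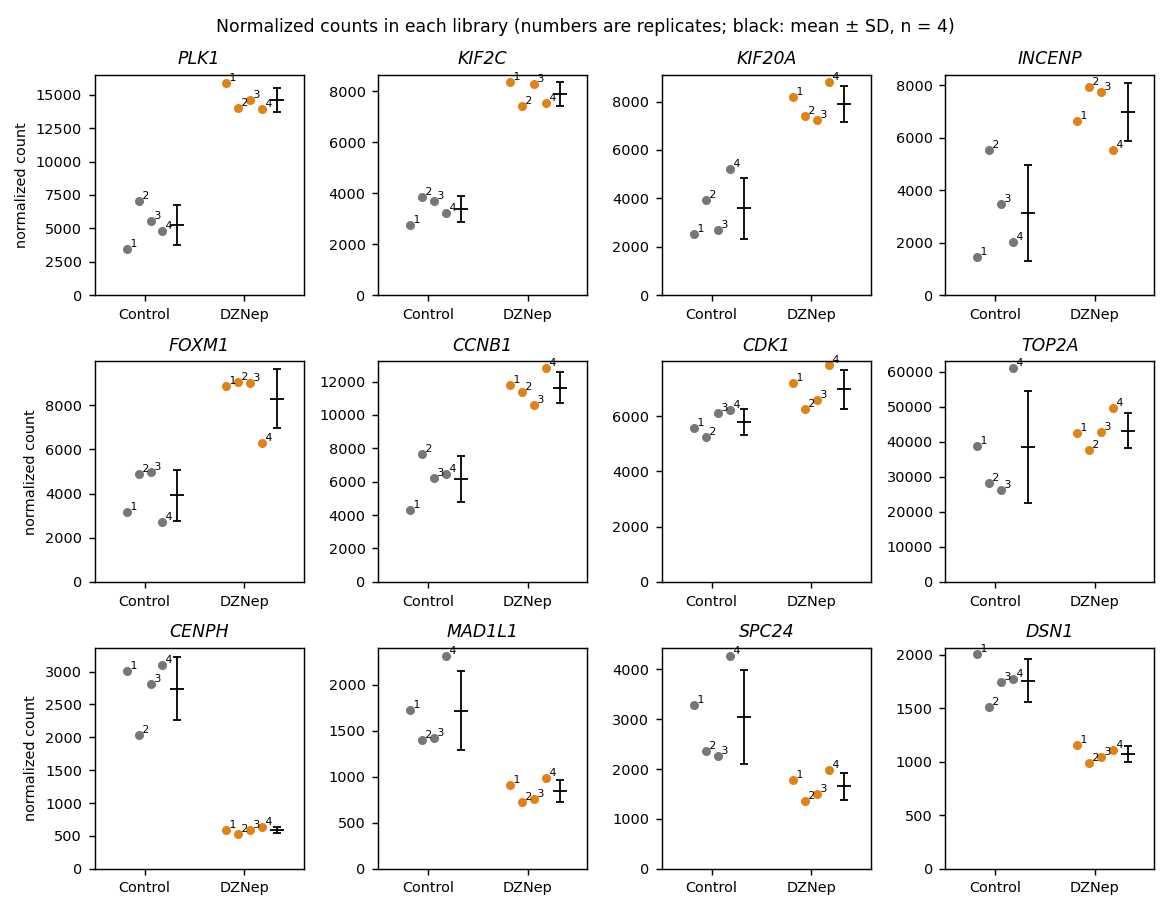
Normalized counts (y axes, from 0) of 12 members in each Control (grey) and DZNep (orange) library, with replicate numbers beside the points and the mean ± SD of 4 libraries in black. PLK1, KIF2C, KIF20A, FOXM1 and CCNB1 are higher and CENPH, MAD1L1, SPC24 and DSN1 lower in every DZNep library, whereas INCENP and TOP2A overlap between the groups.

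FOXM1 (ENSG00000111206, chromosome 12 from 2857680 to 2877174), the transcription factor among the members, had 3168, 4880, 4959 and 2703 normalized counts in the Control and 8859, 9067, 8993 and 6304 in the DZNep libraries. The groups did not overlap, and DZNep replicate 4 stood below the other DZNep libraries, as Control replicate 4 did among the Control libraries. FOXM1 rose 2.08-fold (log2 fold change 1.05, standard error 0.23, adjusted p = 0.00451, edgeR). Of its exonic bases, 15.9% lie in ITFG2 on the opposite strand, a gene with 5358 counts over the 8 libraries against 52615 for FOXM1.

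In the chromosomal passenger complex, Aurora B is held at centromeres by INCENP, survivin and borealin. Of its 4 genes, 3 rose and 0 fell (75.0% and 0%, against 19.1% and 21.8% of all genes tested). INCENP (ENSG00000149503, chromosome 11 from 62123998 to 62153169), the scaffold, had 1465, 5542, 3477 and 2006 normalized counts in the Control and 6642, 7924, 7746 and 5537 in the DZNep libraries. Control replicate 2 reached the level of DZNep replicate 4, so the groups overlapped, and replicates 2 and 3 were the highest libraries of each group. INCENP rose with a log2 fold change of 1.13 (standard error 0.36, adjusted p = 0.0289, with the block 4.17e-05, edgeR). The call without the block was lost when any library other than Control replicate 2 or DZNep replicate 4 was left out, with adjusted p-values of 0.0526 to 0.0715.

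CDCA8 (ENSG00000134690, chromosome 1 from 37692481 to 37709719), which encodes borealin, had 1566, 2725, 2446 and 1974 normalized counts in the Control and 4367, 4211, 4304 and 4306 in the DZNep libraries. The DZNep libraries were nearly equal and all above the Control libraries (log2 fold change 0.95, standard error 0.18, adjusted p = 0.00192, edgeR). BIRC5 (ENSG00000089685, chromosome 17 from 78214186 to 78225636), which encodes survivin, had 5776, 7291, 7303 and 5981 normalized counts in the Control and 13093, 10676, 11163 and 12116 in the DZNep libraries. BIRC5 rose without overlap (log2 fold change 0.81, standard error 0.15, adjusted p = 0.00188, edgeR). AURKB, the kinase of the complex, was at 5190 ± 1675 and 5033 ± 1322 normalized counts (SD, n = 4 each), and its value of -0.07 on the log2 scale did not pass with or without the block.

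Among the 8 spindle checkpoint genes, 1 rose and 1 fell (12.5% each, against 19.1% and 21.8% of all genes tested). With the block 5 were higher and 1 was lower, where 28.8% and 30.2% of all genes tested passed. TTK (ENSG00000112742, chromosome 6 from 80003887 to 80042527), the MPS1 kinase that starts checkpoint signaling at kinetochores, had 2938, 3589, 3585 and 2857 normalized counts in the Control and 6043, 5694, 5880 and 6156 in the DZNep libraries. The groups were wide apart, and TTK rose 1.80-fold (log2 fold change 0.85, standard error 0.14, adjusted p = 0.000857, edgeR). MAD1L1 (ENSG00000002822, chromosome 7 from 1815793 to 2233243) encodes MAD1, which recruits MAD2 to unattached kinetochores. It had 1727, 1397, 1420 and 2315 normalized counts in the Control and 906, 729, 761 and 984 in the DZNep libraries. MAD1L1 fell by 1.05 on the log2 scale (standard error 0.20, adjusted p = 0.00188, edgeR), with all DZNep libraries below all Control libraries.

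BUB1B (ENSG00000156970, chromosome 15 from 40161023 to 40221123) encodes BUBR1, part of the complex that inhibits the APC/C. It had 2140, 3427, 3448 and 2014 normalized counts in the Control and 3733, 4841, 4128 and 3514 in the DZNep libraries. Control replicates 2 and 3 came close to DZNep replicate 4, though no libraries overlapped. The log2 fold change of 0.53 did not pass (standard error 0.21, adjusted p = 0.0708, edgeR), but passed with the block (0.00111). The other checkpoint members were split: BUB1, CDC20 and ZW10 were higher with the block alone (adjusted p = 0.00721, 0.00989 and 0.000933, edgeR), and MAD2L1 and BUB3 had log2 fold changes of 0.04 and -0.003 and passed in neither fit.

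The kinetochore was the group with 0 of 14 genes higher and 4 lower (28.6%, against 21.8% of all genes tested). With the block 0 were higher and 7 were lower, where 28.8% and 30.2% of all genes tested passed. Its median log2 fold change was -0.29. CENPH (ENSG00000153044, chromosome 5 from 69189574 to 69210357) encodes a subunit of the constitutive centromere network, on which the outer kinetochore is built. It had 3003, 2036, 2818 and 3095 normalized counts in the Control and 590, 530, 585 and 642 in the DZNep libraries. No Control library came near the DZNep libraries, which differed little among themselves. CENPH fell by 2.25 on the log2 scale, that is 4.76-fold (standard error 0.17, adjusted p = 1.3e-05, edgeR), and the log2 ratio was between -2.35 and -1.94 in the 4 pairs. CENPH lies 11.3 kb from CCNB1 on chromosome 5, the neighbour that rose.

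CENPK (ENSG00000123219, chromosome 5 from 65517766 to 65563168), which binds CENPH in the same network, had 1740, 1470, 1858 and 1447 normalized counts in the Control and 892, 937, 827 and 1008 in the DZNep libraries. CENPK fell without overlap (log2 fold change -0.86, standard error 0.14, adjusted p = 0.000923, edgeR). Their partner CENPI was at 914 ± 467 and 942 ± 307 normalized counts (SD, n = 4 each), where replicates 2 and 3 were above replicates 1 and 4 in both groups, and its log2 fold change of 0.02 did not pass. CENPN, which binds the centromeric nucleosome, had a log2 fold change of 0.03 and did not pass.

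The NDC80 complex, the part of the kinetochore that binds microtubules, has 4 subunits. SPC24 (ENSG00000161888, chromosome 19 from 11131520 to 11155807) had 3277, 2369, 2253 and 4276 normalized counts in the Control and 1773, 1354, 1508 and 1972 in the DZNep libraries. All DZNep libraries were lower, while Control replicates 1 and 4 were above 2 and 3. SPC24 fell by 0.91 on the log2 scale (standard error 0.23, adjusted p = 0.00888, edgeR). SPC25, which pairs with SPC24, did not pass (log2 fold change -0.33, adjusted p = 0.125, edgeR) except with the block, where it was lower (adjusted p = 0.0244).

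NDC80 (ENSG00000080986, chromosome 18 from 2571557 to 2616635), the subunit that contacts the microtubule, had 2706, 1703, 2158 and 2096 normalized counts in the Control and 2682, 2451, 2491 and 2906 in the DZNep libraries. Control replicate 1 lay within the DZNep range, so the groups overlapped. NDC80 did not pass (log2 fold change 0.25, standard error 0.16, adjusted p = 0.233, or 0.0654 with the block, edgeR). Its partner NUF2 had a log2 fold change of 0.11 and passed in neither fit.

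DSN1 (ENSG00000149636, chromosome 20 from 36751791 to 36773818), a subunit of the MIS12 complex that links centromere and outer kinetochore, had 2009, 1511, 1742 and 1773 normalized counts in the Control and 1156, 989, 1040 and 1109 in the DZNep libraries. DSN1 fell without overlap (log2 fold change -0.74, standard error 0.14, adjusted p = 0.0019, edgeR). MIS12 itself had a log2 fold change of -0.38 (adjusted p = 0.152, or 0.0291 with the block, edgeR), with 9.53% of its exonic bases shared with DERL2. CENPE, a kinesin of the kinetochore, was at 4839 ± 2126 and 2802 ± 723 normalized counts (SD, n = 4 each) and just missed the threshold (log2 fold change -0.82, adjusted p = 0.0508, or 0.000604 with the block, edgeR). CENPF, KNL1 and ZWINT, which passed in neither fit, had log2 fold changes of -0.004, -0.18 and -0.25.

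Of the 9 spindle genes and motors, 5 rose and 0 fell (55.6% and 0%, against 19.1% and 21.8% of all genes tested). With the block 8 rose, where 28.8% of all genes tested were higher. KIF2C (ENSG00000142945, chromosome 1 from 44739818 to 44767767) encodes MCAK, a kinesin that depolymerizes microtubules. It had 2759, 3846, 3702 and 3199 normalized counts in the Control and 8340, 7406, 8258 and 7537 in the DZNep libraries. The groups stood wide apart, and KIF2C rose 2.29-fold (log2 fold change 1.196, standard error 0.15, adjusted p = 0.000211, edgeR). KIF4A (ENSG00000090889, chromosome X from 70290104 to 70420886), a chromokinesin of the central spindle, had 2106, 3814, 3419 and 2150 normalized counts in the Control and 5737, 6040, 6239 and 4697 in the DZNep libraries. KIF4A rose without overlap (log2 fold change 0.96, standard error 0.22, adjusted p = 0.006, edgeR), and its near copy KIF4B was listed with 50 counts over the 8 libraries.

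KIFC1 (ENSG00000237649, chromosome 6 from 33391823 to 33409896), a kinesin that clusters spindle poles, had 2380, 2217, 2255 and 3290 normalized counts in the Control and 4216, 3923, 3997 and 5383 in the DZNep libraries. Replicate 4 was the highest library of each group, and the groups did not overlap. KIFC1 rose by nearly the same amount in every pair, with log2 ratios of 0.71 to 0.83 (log2 fold change 0.76, standard error 0.18, adjusted p = 0.00669, edgeR). TPX2 (ENSG00000088325, chromosome 20 from 31739271 to 31801805), the activator of Aurora A on the spindle, had 5690, 8820, 7233 and 6321 normalized counts in the Control and 11396, 10865, 10924 and 10510 in the DZNep libraries. TPX2 rose without overlap (log2 fold change 0.61, standard error 0.16, adjusted p = 0.0127, edgeR).

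KIF22, another chromokinesin, rose as well (log2 fold change 0.45, standard error 0.16, adjusted p = 0.049, edgeR), and its call was lost without any 1 of 7 libraries (every library but Control replicate 4), with adjusted p-values of up to 0.112. TACC3 and CKAP5, which act together on spindle microtubules, and the motor KIF11 had log2 fold changes of 0.57, 0.59 and 0.30 and passed with the block alone (adjusted p = 0.000357, 0.000282 and 0.0256, edgeR). KIF18A, a motor that limits chromosome movement, was at 1472 ± 44.1 and 1496 ± 96.3 normalized counts (SD, n = 4 each).

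The 6 cytokinesis genes all had a positive log2 fold change, and 3 of them rose. KIF20A (ENSG00000112984, chromosome 5 from 138178719 to 138187723) encodes MKLP2, which carries the passenger complex to the central spindle. It had 2534, 3918, 2669 and 5206 normalized counts in the Control and 8197, 7388, 7218 and 8792 in the DZNep libraries. Control replicate 4 was the highest Control library but stayed below every DZNep library, and KIF20A rose 2.16-fold (log2 fold change 1.11, standard error 0.23, adjusted p = 0.00367, edgeR). KIF23 (ENSG00000137807, chromosome 15 from 69414246 to 69448427), the motor of centralspindlin, had 1905, 2618, 2749 and 2118 normalized counts in the Control and 3383, 3528, 3552 and 3192 in the DZNep libraries. Its groups did not overlap (log2 fold change 0.51, standard error 0.15, adjusted p = 0.0213, edgeR), but the call was lost without Control replicate 1 or any of DZNep replicates 1 to 3, with adjusted p-values of 0.0521 to 0.0672.

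ANLN (ENSG00000011426, chromosome 7 from 36389821 to 36453791), which encodes the contractile ring scaffold anillin, had 2881, 4949, 4199 and 3144 normalized counts in the Control and 5670, 6560, 5950 and 4984 in the DZNep libraries. Control replicate 2 and DZNep replicate 4 were nearly level, and the log2 fold change was 0.58 (standard error 0.19, adjusted p = 0.0339, edgeR). The call was lost without Control replicate 1, 3 or 4 or DZNep replicate 1, 2 or 3, with adjusted p-values of 0.0517 to 0.0971. PRC1, which bundles midzone microtubules, and ECT2, the activator of RhoA, passed with the block alone (log2 fold change 0.38 and 0.70, adjusted p = 0.0114 and 0.00032, edgeR). KIF14, a kinesin of the midbody, passed in neither fit.

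In the group of cohesion and separase genes, SGO2 was higher, and the other 3 genes did not pass. SGO2 (ENSG00000163535, chromosome 2 from 200510008 to 200584096) encodes a shugoshin, which protects centromeric cohesin. It had 2181, 1830, 1689 and 2654 normalized counts in the Control and 3493, 3444, 3619 and 4207 in the DZNep libraries, without overlap. SGO2 rose by 0.79 on the log2 scale (standard error 0.17, adjusted p = 0.00409, edgeR). The other shugoshin SGO1 had a log2 fold change of 0.14 (adjusted p = 0.71), separase (ESPL1) 0.29 (0.382, or 0.0472 with the block), and its inhibitor securin (PTTG1) -0.22 (0.605). PTTG1 has near copies, PTTG2 and PTTG3P, which were listed with 9 and 6 counts over the libraries.

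Of the 7 genes of condensin and chromosome structure, 2 rose and 0 fell (28.6% and 0%, against 19.1% and 21.8% of all genes tested). With the block 2 were higher and 3 were lower, where 28.8% and 30.2% of all genes tested passed. NCAPD2 (ENSG00000010292, chromosome 12 from 6493356 to 6531955), a regulatory subunit of condensin I, had 6376, 12038, 9515 and 7908 normalized counts in the Control and 17106, 17037, 18318 and 14611 in the DZNep libraries. All DZNep libraries were higher (log2 fold change 0.88, standard error 0.20, adjusted p = 0.00635, edgeR), and 5.92% of the exonic bases lie in MRPL51. NCAPH (ENSG00000121152, chromosome 2 from 96335766 to 96377091), the subunit that closes the ring, had 2713, 4089, 3621 and 3503 normalized counts in the Control and 6002, 6193, 6130 and 6067 in the DZNep libraries. NCAPH rose without overlap (log2 fold change 0.78, standard error 0.15, adjusted p = 0.00238, edgeR). The ATPase subunits SMC2 and SMC4 had log2 fold changes of -0.33 and -0.50 and were lower with the block alone (adjusted p = 0.0364 and 0.0247, edgeR), where 19.0% of the exonic bases of SMC4 lie in TRIM59. NCAPG, with 33.7% of its exonic bases in LCORL, passed in neither fit.

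TOP2A (ENSG00000131747, chromosome 17 from 40388525 to 40417896), the topoisomerase that disentangles sister chromatids, had 38651, 28244, 26252 and 60996 normalized counts in the Control and 42370, 37723, 42679 and 49719 in the DZNep libraries. The Control libraries spanned the whole DZNep range. TOP2A did not pass (log2 fold change 0.13, standard error 0.27, adjusted p = 0.721, or 0.231 with the block, edgeR), and its sign turned without Control replicate 3 (-0.015) and in replicates 1 and 4 alone (-0.10), while in replicates 2 and 3 alone it was 0.53 (adjusted p = 0.0119). MKI67, which encodes the proliferation marker Ki-67 that coats mitotic chromosomes, was at 6117 ± 2285 and 3891 ± 736 normalized counts (SD, n = 4 each). On the log2 scale the change was -0.68 (adjusted p = 0.0596, or 0.00238 with the block, edgeR), and Control replicate 2 was the highest library at 9118.

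**Figure D3:**
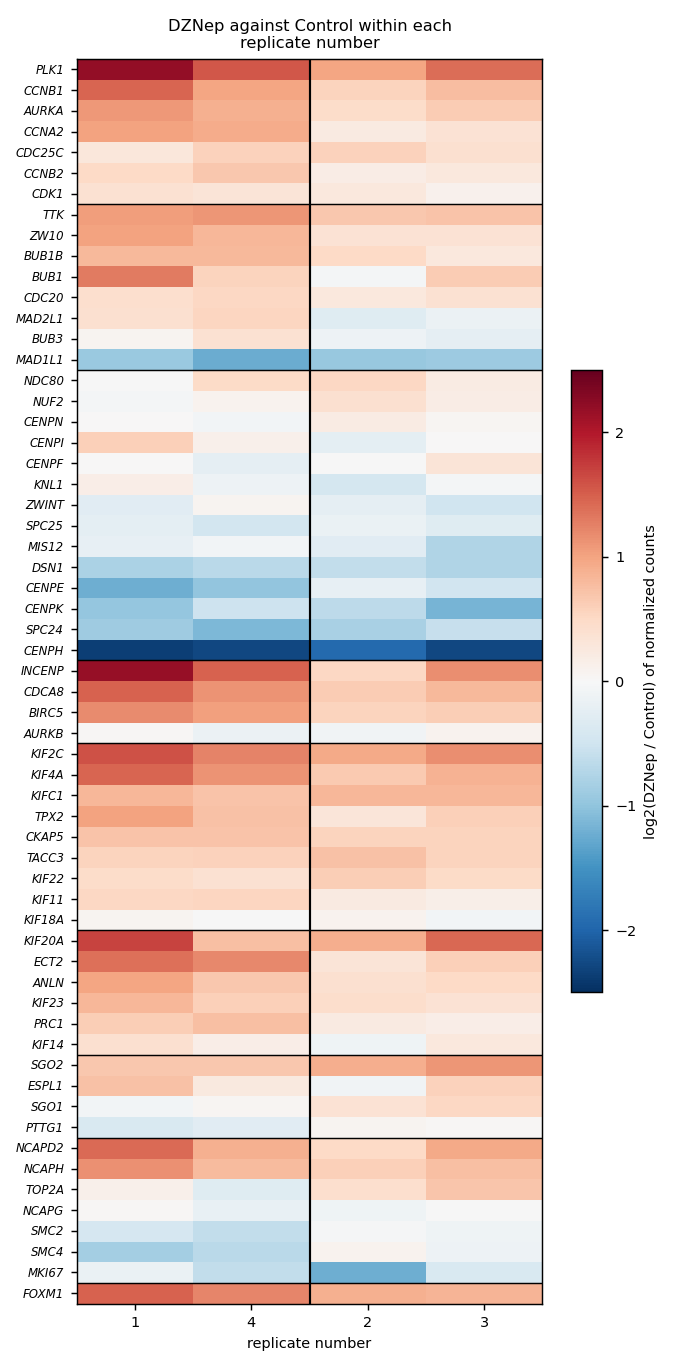
Log2 ratio of DZNep to Control normalized counts (color) for each member (rows, grouped by function) within each replicate number (columns, with replicates 1 and 4 left of the line and 2 and 3 right of it). Of the 60 rows, 31 are red in all 4 columns and 10 are blue in all 4, and the red of PLK1, CCNB1 and INCENP is deepest in replicate 1 (2.19, 1.46 and 2.18). The same count over all genes tested was not made.

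The order of the libraries within a group was similar for many members. In the Control, replicates 1 and 4 were both above replicates 2 and 3 for 18 members and both below them for 32, against 35.6% and 35.2% of all genes tested. In the DZNep libraries, they were above for 25 and below for 21 members, against 27.8% and 27.5%. The order was the same in both groups for 32 members, with replicates 1 and 4 above in 13 (SPC24, AURKB and PTTG1 among them) and below in 19 (INCENP, FOXM1 and ECT2 among them), and it was opposite for 6. The shares of all genes tested with the same or the opposite order in both groups were not counted. The second principal component of all genes tested also split replicates 1 and 4 from 2 and 3. The size of the log2 fold change was larger in replicates 1 and 4 alone than in replicates 2 and 3 alone for 43 of the 60 members, against 55.7% of all genes tested in these fits. The log2 fold change of INCENP was 1.83 and 0.76, that of PLK1 1.87 and 1.15 and that of CENPH -2.29 and -2.16, in this order of fits. For 17 members it was larger in replicates 2 and 3, as for SGO2 (0.69 and 0.97) and CENPK (-0.73 and -0.95). In replicates 1 and 4 alone, 26 members were higher and 7 were lower, and in replicates 2 and 3 alone, 25 and 9. Of all genes tested in these fits, 21.1% and 22.7% were higher and lower in replicates 1 and 4 alone, and 22.0% and 23.2% in replicates 2 and 3 alone. The larger mitochondrial share of replicates 1 and 4 moved with this order in both groups, and its part in it was not tested.

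Summed over the 60 members, the normalized counts were 270792, 303564, 281995 and 322062 in the Control and 375272, 373086, 376673 and 381904 in the DZNep libraries. The sum was higher in every DZNep library. The members thus held 0.701% to 0.824% of each Control library and 0.939% to 1.09% of each DZNep library. Without mitochondrial counts, these shares were 0.760% to 0.850% and 1.04% to 1.14%.

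Levels of different genes were compared as normalized counts per kilobase of the canonical transcript. In the Control, the highest levels were those of PTTG1 (7162 ± 3125 per kb), TOP2A (6767 ± 2797), SMC4 (4292 ± 1721) and AURKB (4175 ± 1348; SD, n = 4 each), whose ranges overlapped. The lowest were CENPI (164 ± 83.7), KNL1 (181 ± 72.7) and KIF14 (273 ± 69.9; SD, n = 4 each), and these overlapped as well. In the DZNep libraries, TOP2A (7572 ± 869), PLK1 (6770 ± 418), PTTG1 (6261 ± 2038) and CCNB1 (5736 ± 447) were at the top (SD, n = 4 each), each overlapping the next in this order.

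Some subunits of a complex changed in level relative to each other, and others did not separate between the groups. This comparison was chosen after the values were seen and is a description, with no test. In the NDC80 complex, the Control levels per kb were 1019 ± 194 for NDC80, 1579 ± 366 for NUF2, 1329 ± 411 for SPC24 and 1342 ± 221 for SPC25. The DZNep levels were 1238 ± 98.0, 1735 ± 239, 721 ± 120 and 1089 ± 123 per kb (SD, n = 4 each). The log2 ratio of NDC80 to SPC24 was between -0.92 and 0.04 in the Control and between 0.67 and 0.96 in the DZNep libraries. CENPH was above CENPK per kb in every Control library (log2 ratio 0.82 to 1.45) and below it in every DZNep library (-0.47 to -0.15). In condensin I, NCAPG was above NCAPH in every Control library (0.76 to 1.18) and level with it in the DZNep libraries (-0.22 to 0.10), while NCAPD2 and NCAPH kept a log2 ratio of 1.66 ± 0.17 and 1.78 ± 0.13 (SD, n = 4 each).

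In the chromosomal passenger complex, AURKB had the highest Control level per kb (4175 ± 1348), whereas with DZNep BIRC5 reached 4570 ± 416 beside 4049 ± 1064 for AURKB (SD, n = 4 each). Of the 25 pairs of subunits within these 4 complexes, the ratio did not overlap between the groups in 12: 5 of 6 in the NDC80 complex, 5 of 10 in condensin I, 2 of 3 among CENPH, CENPI and CENPK, and 0 of 6 in the passenger complex. Among all 1770 pairs of the 60 members, 39.7% did not overlap, so that the 25 pairs are not far from the other pairs.

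**Figure D4:**
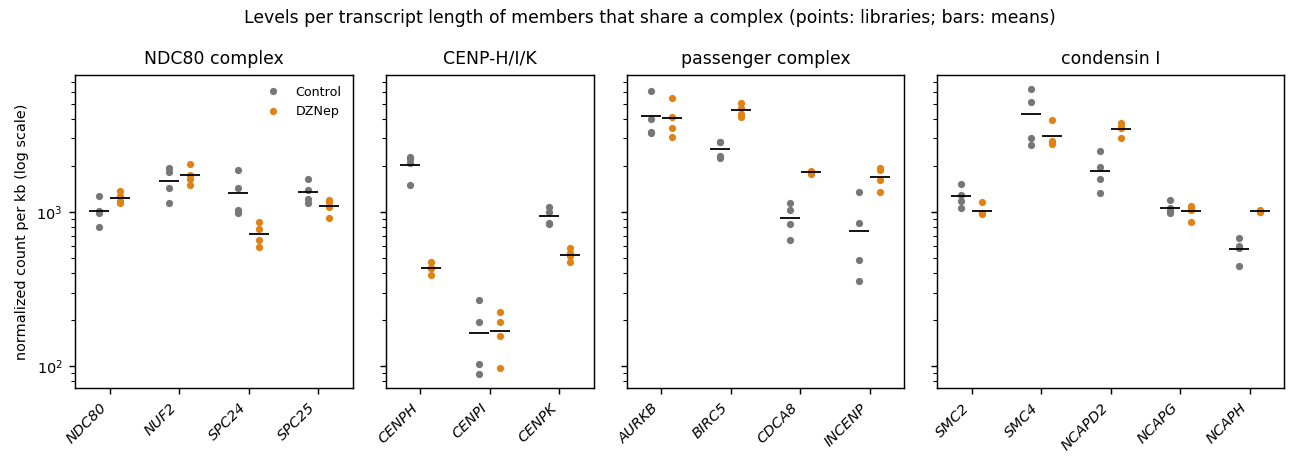
Normalized counts per kilobase of the canonical transcript (y axis, log scale) of the subunits of 4 complexes in each Control (grey) and DZNep (orange) library, with bars at the means. CENPH and SPC24 drop in the DZNep libraries (from 2022 to 433 and from 1329 to 721 per kb) while NDC80, CENPI and AURKB overlap between the groups.

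Other genes of the pathway, in 9 lists without the members, were counted in the same fit. These lists too were chosen with earlier results of these data known. Of 24 other kinetochore and centromere genes, 7 were lower and 3 were higher (29.2% and 12.5%, against 21.8% and 19.1% of all genes tested). The largest changes were those of ZWILCH, a subunit of the RZZ complex that also holds ZW10 (2617 ± 541 to 907 ± 104 normalized counts, log2 fold change -1.56), CENPU (4228 ± 1284 to 2009 ± 472, -1.10) and CENPW (2851 ± 1595 to 1371 ± 472, -1.09; SD, n = 4 each), which all fell. CENPU and CENPW belong to the same centromere network as CENPH and CENPK, but so does CENPI, which did not pass. Among the 3 genes of the list that were higher, CENPO changed most (1450 ± 286 to 2851 ± 390 normalized counts, SD, n = 4 each, log2 fold change 0.95). CENPO was named after its values were seen and is not among the genes followed through the alternatives. Of 18 APC/C subunits and regulators, 4 were lower and 2 were higher (22.2% and 11.1%, the lower share close to the 21.8% of all genes tested), and ANAPC7 (-1.08), ANAPC16 (-0.94) and ANAPC15 (0.76) changed most on the log2 scale.

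Of 14 other regulators of entry, 4 were higher and 0 were lower (28.6% and 0%, against 19.1% and 21.8% of all genes tested). CCNF, cyclin F, rose (2242 ± 593 against 5672 ± 536 normalized counts, SD, n = 4 each, log2 fold change 1.31), the centrosomal kinase NEK2 rose by 0.81 on the log2 scale, and the CDK1 inhibitor kinase WEE1 by 0.53. Of 27 other spindle and cytokinesis genes, 6 were higher and 7 were lower (22.2% and 25.9%, close to all genes tested). The normalized counts of CKAP2 were 5441 ± 1731 and 15072 ± 2011 and those of CKAP2L 1347 ± 284 and 3675 ± 699 (SD, n = 4 each), and both rose (log2 fold change 1.44 and 1.42), as did SPAG5 (1.36). Genes of this list that fell by a similar amount, named after their values were seen, were HAUS7 (-1.36) and HAUS4 (-1.21), subunits of the augmin complex, and HMMR (-1.27), and HAUS7 lost its call without Control replicate 1, DZNep replicate 1 or DZNep replicate 3, with adjusted p-values of up to 0.0587 (edgeR). Of 16 cohesin and condensin II genes, 2 were higher and 1 was lower (12.5% and 6.25%, against 19.1% and 21.8% of all genes tested). The cohesin subunit RAD21 rose by 0.76, the condensin II subunit NCAPH2 rose by 0.52 and the cohesin loader gene MAU2 fell by 0.54 on the log2 scale.

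Of 10 centriole genes, STIL rose (log2 fold change 0.99) and CEP152 fell (-1.10), 10.0% in each direction against 19.1% and 21.8% of all genes tested. Of 12 MuvB and DREAM factors, 1 was higher and 3 were lower, the lower share close to that of all genes tested: E2F5 fell (769 ± 235 against 263 ± 11.6 normalized counts, SD, n = 4 each, log2 fold change -1.57), and TFDP1, the dimer partner of E2F factors, and MYBL2, which encodes B-MYB, fell by 1.02 and 0.56. Of 40 genes of G1/S and replication, 4 were higher and 7 were lower (10.0% and 17.5%, against 19.1% and 21.8% of all genes tested). E2F2 (-1.22), the primase gene PRIM1 (-0.94) and the flap nuclease gene FEN1 (0.93) changed most. Of 11 CDK inhibitors and D cyclins, 3 were higher and 0 were lower (27.3% and 0%, against 19.1% and 21.8% of all genes tested). The 3 were CDKN2D (1.40), CDKN2C (0.57) and CDKN1B (0.48), which all encode CDK inhibitors. Of the other CDK inhibitors in the list, CDKN1A (-0.44), CDKN1C (0.32) and CDKN2B (0.14) did not pass. With the block CDKN1A was lower and CDKN1C was higher (adjusted p = 0.0102 and 0.0438, edgeR). Among the genes named from these lists, ANAPC16, CENPW, WEE1, NCAPH2, MAU2, MYBL2, PRIM1, CDKN2C and CDKN1B lost the call under at least 1 alternative, with adjusted p-values of up to 0.368 (MYBL2, edgeR). The medians of the 9 lists lay between -0.25 and 0.23, below the 0.34 of the members.

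**Figure D5:**
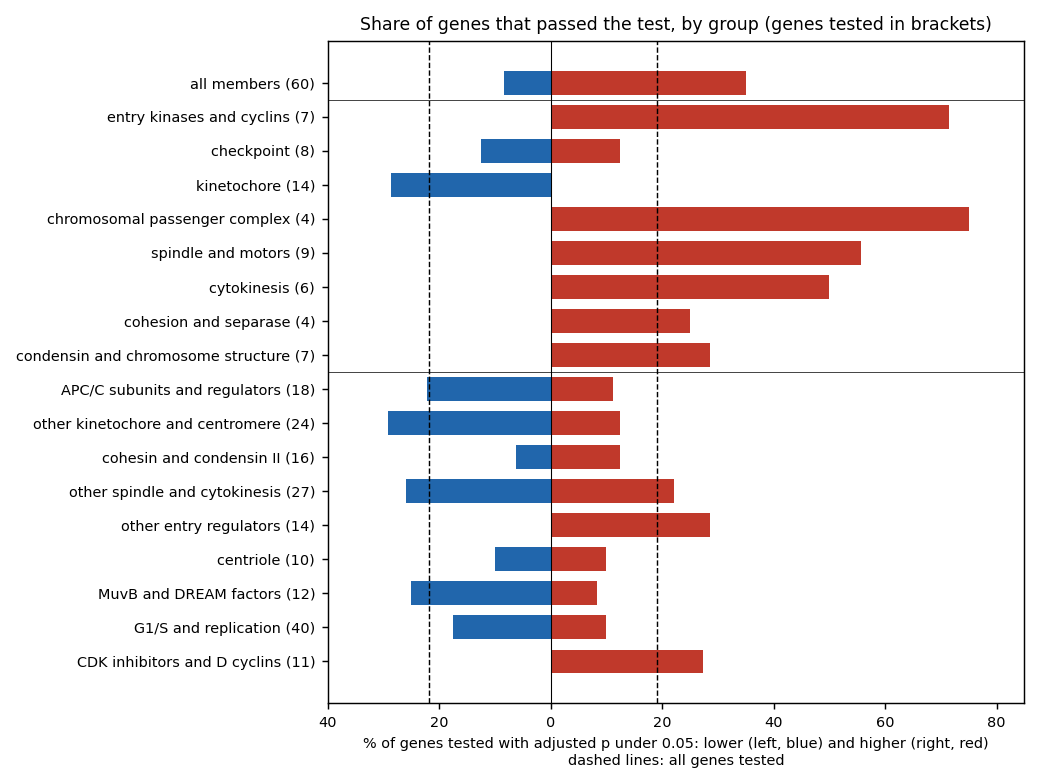
Share of genes tested that were higher (red, right) or lower (blue, left) at an adjusted p-value under 0.05, for all 60 members, 8 functional groups of them and 9 lists of other genes, with the share of all genes tested as dashed lines (19.1% higher, 21.8% lower). Entry kinases and cyclins (71.4%) and the passenger complex (75.0%) reach farthest to the right, and the 14 kinetochore genes have 0% higher and 28.6% lower.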

How the data were processed

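RNAseq of 4 Control and 4 DZNep libraries of HEK293T cells was analysed, grouped by the treatment and replicate number in the labels. Per the methods and labels, the authors sequenced 150 bp at both ends, used Trimmomatic 0.36 for trimming and STAR 2.5.2b for alignment to GRCh38, and took uniquely mapped exonic reads per gene from featureCounts (Subread 1.5.2). The annotation release, library type and strandedness are not given in the sources used here, so members that overlap another gene, or have near copies, are uncertain. The count table that the authors deposited is not normalized. The normalized signal that the authors deposited is each count divided by 1 DESeq2 size factor per library, for the genes with more than 80 counts in all, as was checked on the values. The labels name DMEM as the medium, and the methods another one.

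The packages limma 3.58.1, DESeq2 1.42.0 and edgeR 4.0.16 were run under R 4.3.3. The counts were tested with edgeR's quasi-likelihood test after TMM normalization and filterByExpr, with Benjamini-Hochberg adjustment over 19171 genes. The procedure was also run on simulated data. The simulated libraries did not hold the replicate order seen here, so that run does not cover its effect. Standard errors are those of the log2 fold change. Coordinates, exonic overlaps and canonical transcript lengths come from GENCODE release 44 on GRCh38, which gave a symbol to 56410 of 57500 identifiers. Values in every library are given for CDK1, CCNB1, PLK1, AURKA, BUB1B, NDC80, TOP2A and FOXM1 and for up to 4 members per functional group with the largest absolute log2 fold change among those past the threshold, and up to 3 genes of each related list were named by the same order. All other names were picked with their values in view. The members and lists were chosen with earlier results of these data known.

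After subtraction of group means, same-numbered libraries correlated with 0.14, 0.49, 0.43 and 0.67 (replicates 1 to 4), all over 0.1, and were treated as pairs in the block, although Control replicate 1 correlated more with DZNep replicate 4 (0.53). Replicates of a group differed by more than sampling noise (chi-square per degree of freedom of at least 27.3). The SD between libraries was over 2 times the counting error in 116 of 120 sets of 4 libraries (60 members in each group) and close to it in some others, such as KIF18A in the Control (43.9 against 40.2 normalized counts). Alternatives were other normalizations, DESeq2, other filters, the block, subsets of libraries and limma on log2(normalized count + 1) and + 0.1.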

Additional observations from a re-analysis of the deposited data

Results flagged for a closer look

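In 56 groups of 4 libraries (28 named members in each treatment), a library far from the other 3 was found in 2, where chance gives about 1 in 20. Control replicate 4 was high for KIFC1, with 3290 normalized counts against 2217 to 2380 in the other Control libraries, a gap of 0.848 of the range. DZNep replicate 4 was low for FOXM1, with 6304 normalized counts against 8859 to 9067 in the other DZNep libraries, a gap of 0.925 of the range. Both genes passed the test under all 18 alternatives, including the fits without these libraries, with adjusted p-values of up to 0.024 for KIFC1 and 0.0174 for FOXM1 (edgeR, limma or DESeq2).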

How the results depend on the processing

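The numbers of members higher and lower (21 and 5) became 32 and 11 in the fit with the replicate block, and 9 were lower in replicates 2 and 3 alone. With each library left out in turn, 15 to 26 were higher and 5 to 6 lower, and with the log2 fold change threshold of 1 there were 2 to 10 higher (main 5) and 1 to 3 lower (main 2). The fewest past both thresholds came without Control replicate 1 (2) and the most without Control replicate 2 (10). With both thresholds, 12 were higher in replicates 1 and 4 alone and 3 in replicates 2 and 3 alone, and 1 was lower in replicates 2 and 3 alone, with library sizes alone and with limma and a pseudocount of 1. DESeq2 called 24 and 6, and no filter on low counts 17 and 6. The number of related lists with more genes lower than higher (5) was 2 in replicates 1 and 4 alone and 3 to 5 with a library left out (3 without DZNep replicate 1, 2 or 3). Of the 28 named members, ANLN, CDC25C, INCENP and KIF23 lost their call under some alternatives, BUB1B passed under 5 of 18, and TOP2A ranged from -0.015 (without Control replicate 3) to 0.44 with a library left out and turned to -0.10 in replicates 1 and 4 alone. The cause was not tested. Of 468 values for 26 genes of the related lists, computed after seeing the data, 420 kept their call, 48 lost it and 0 turned. The block changed no call of these 28 members other than BUB1B, while among the members outside them it added calls, and leaving out a library pools the spread over 7 libraries. Whether the number of libraries or their depth limits these comparisons more was not tested.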
